A study of Mus musculus with 2 samples.

Results

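Ly6c2 monocytes without Cxcl10 are the cells described here: 1326 of the 9798 cells that passed the cell filter, 522 of 5292 from tumors with NK cells and 804 of 4506 from NK cell-depleted tumors. They were selected on measured values. A cell had at least 2 UMIs (unique molecular identifiers, each standing for a captured RNA molecule) of Ly6c2, at least 1 UMI of 2 or more of the 5 monocyte genes Plac8, Vcan, Ms4a4c, Chil3 and Ccr2, and none of Cxcl10, Ace, Adgre4, Cd3e, Ncr1 or Cxcr2. A UMI count of 0 does not show that a cell lacked the RNA. Before that, barcodes were kept that had between 500 and 15000 UMIs, between 200 and 4000 genes detected, and no more than 10% of UMIs from mitochondrial genes.

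Single-cell RNA sequencing was done on live CD45+ cells sorted from melanomas on day 4 after implantation into 8 week old C57BL/6 mice. The tumor cells were a Braf-mutant melanoma line made deficient in cyclooxygenase (Ptgs-/-), the enzyme that starts prostaglandin synthesis, and both groups carried them. The control group received no depleting antibody. The NK cell-depleted group received 200 µg anti-NK1.1 and 30 µg anti-asialo GM1 on days 0 and 2. Both sample titles name the knockout tumor, whereas the genotype label calls the tumor cells wild-type. NK1.1 and asialo GM1 are not restricted to NK cells. According to the methods, 10 tumors were pooled per group and parental melanoma cells were spiked into the suspensions, so that each group is 1 library and 16000 cells were loaded for each. With 1 library per group no difference between the groups has a replicate check, treatment and library cannot be told apart, and no test was made. All intervals below are 95% intervals that cover counting error only.

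Classical monocytes are short-lived blood cells that leave the bone marrow through the chemokine receptor Ccr2, carry the surface protein Ly6c2 and enter inflamed tissue, where they can take on features of macrophages or dendritic cells. Interferons act on them through Irf and other transcription factors and induce antiviral genes of the Ifit, Oas and Gbp families. Cxcl10, a chemokine that attracts activated T cells and NK cells through Cxcr3, belongs to the same interferon-induced genes, so a cell with no Cxcl10 UMI has been chosen on one readout of that response.

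Depth was similar in both libraries. The members had a median of 5098.5 UMIs in control and 5518.5 UMIs in NK cell-depleted tumors, with mitochondrial medians of 3.41% and 4.04%, and together held 2935680 and 4690786 UMIs. Levels are given as CPM, UMIs of a gene summed over a group of cells and scaled to the sum of all their UMIs. The filtered libraries shared 5 cell barcodes and no barcode was a member in both, although the barcodes of 2 NK cell-depleted members also occurred in the control library. An automated doublet caller marked 0 of 5292 and 3 of 4506 cells, too few to be a working call, and no doublets were removed.

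Members made up 9.86% (9.07 to 10.7) of filtered control cells and 17.8% (16.7 to 19.0) of filtered NK cell-depleted cells. The ratio of these shares, control over NK cell-depleted, was 0.553 (0.494 to 0.618). NK cells are part of the denominator, and with cells holding 2 or more NK cell markers (Ncr1 counted, Ccl5 not) left out the shares were 11.2% and 18.1%, with a ratio of 0.617 (0.551 to 0.691). Ly6c2 monocytes in which Cxcl10 was detected made up 2.36% and 1.89% of cells, a ratio of 1.25 (0.943 to 1.67) whose interval includes equality. Cells with and without Cxcl10 together were 12.2% and 19.7% of cells. Among all Ly6c2 monocytes that passed the other conditions, Cxcl10 was detected in 19.3% (16.3 to 22.6) of control and 9.56% (7.71 to 11.7) of NK cell-depleted cells. That is a ratio of 2.02 (1.52 to 2.69). T cells, which are not known as a main source of Cxcl10, held a UMI in 7.89% and 4.72% at lower median depths of 2336.5 and 2601 UMIs. Their ratio was 1.67 (0.549 to 6.06), in the same direction. The part of such background in the monocyte shares was not tested. After every cell was thinned to 2000 UMIs the monocyte shares were 15.1% and 6.64%.

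**Figure D1:**
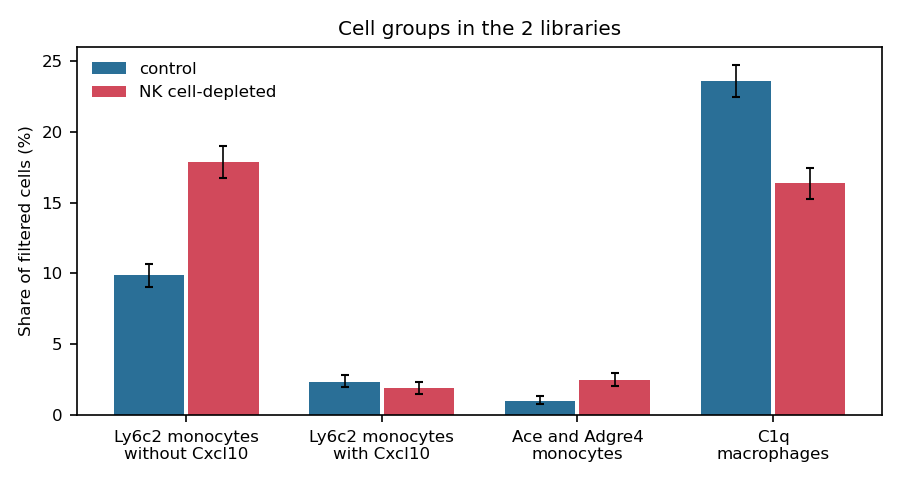
Share of filtered cells (percent, vertical axis from 0) that were Ly6c2 monocytes without Cxcl10 and the compared groups of cells, in the control and the NK cell-depleted library, with exact 95% binomial intervals. The members took 9.86% of the control and 17.8% of the NK cell-depleted library.

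The thresholds cut through continuous values. Of the members, 99 control (19.0%) and 122 NK cell-depleted cells (15.2%) had exactly 2 Ly6c2 UMIs, the median was 6 UMIs in both, and 194 and 220 cells met every other condition with 1 Ly6c2 UMI. The cells with 1 UMI had 1106 and 858 CPM of Plac8, a protein abundant in monocytes, against 1327 and 1400 CPM in members with exactly 2 UMIs. On the Cxcl10 side, 41 (32.8%) and 28 (32.9%) of the Ly6c2 monocytes with Cxcl10 had a single UMI of it. Of the cells that met the Ly6c2 and partner conditions, 87 (11.0%) and 292 (23.5%) held a UMI of Adgre4, a gene of nonclassical monocytes, so this condition removed a larger share of the NK cell-depleted library. Without it the ratio of the members' shares was 0.495.

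The identity of the members was first read from the genes that chose them, as a description. Ly6c2 stood at 1639 and 1660 CPM in members of the control and NK cell-depleted libraries, against 199 and 276 CPM in all other filtered cells. Ccr2 stood at 2116 and 2427 CPM against 1190 and 1417. Chil3, a chitinase-like secreted protein of monocytes and granulocyte precursors, stood at 315 and 754 CPM against 61.6 and 221. All 3 were higher in members than elsewhere in both libraries. The rule required Ly6c2 and used Ccr2 and Chil3 as alternatives, and other cells also held them.

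Of 18 further genes of classical monocytes that the rule did not name, the median log2 ratio of members over other cells was 0.37 for control and 0.47 for NK cell-depleted tumors, and 2 of the 18 were at least 2-fold higher in both, where 0.254% of 11404 genes were. These counts compare the cells that the rule selected and are given as a description. Lyz2, encoding lysozyme, was at 7076 and 7668 CPM in members against 3437 and 4091 CPM in other cells. Hp, the hemoglobin scavenger haptoglobin, was at 92.0 and 123 CPM against 29.5 and 48.6. Fn1, encoding fibronectin, went the other way, at 864 and 1014 CPM against 1388 and 1581.

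Among genes that the rule did not use, those with the largest ratios over other cells included Ly6a, a surface protein that interferons induce, at 717 and 402 CPM against 206 and 122 (log2 ratios 1.78 and 1.68), and Cd177, a surface protein of granulocytes and monocytes, with log2 ratios 1.67 and 1.60. Spon1, an extracellular matrix protein, had ratios of 1.95 and 1.59. The complement protein C3 was at 99.1 and 140 CPM against 42.8 and 57.5. Interferon-induced genes were common among the others: Irf7, the transcription factor that amplifies type I interferon, was at 320 and 285 CPM against 112 and 114, and Oas3 and Zbp1, sensors of foreign nucleic acid, had log2 ratios of 1.35 and 1.25 and of 1.30 and 1.21. Cells with Cxcl10 were counted among the other cells in this comparison. The type I interferon list had medians of 0.96 and 0.79. Of its 38 measured genes, 10 were at least 2-fold higher in members in both libraries (0.254% of all genes). None of 36 genes of the interferon-gamma list was, and the medians were 0.41 and 0.30.

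Genes of tissue remodelling and hypoxia were among those lower in members than in other cells, where 2.19% of all genes were at least 2-fold lower in both libraries. Mmp12, the elastase of macrophages, was at 45.3 and 89.1 CPM against 667 and 794 CPM. Of its UMIs in members, 47.4% and 89.2% lay in 5 cells, and 1 NK cell-depleted member held 288 of 418. Arg1, which degrades arginine in regulatory macrophages, was at 219 and 45.8 CPM against 961 and 568. Mt2, a metal-binding metallothionein, was at 21.8 and 7.89 CPM against 133 and 109. Of 24 hypoxia and glycolysis genes 12 were lower by that measure (medians -0.98 and -1.32), as were 9 of 20 regulatory and repair genes (medians -0.94 and -1.31). By that measure 6 of 8 neutrophil, 6 of 8 T cell and 6 of 6 migratory dendritic cell genes were lower, and 0 higher. Ets1 (log2 ratios -2.28 and -3.12) and Il1r2 (-2.59 and -2.64) were also among the 10 lowest named genes. The macrophage list had medians of -0.09 and -0.31, and the oxidative phosphorylation list 0.24 and 0.19.

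**Figure D2:**
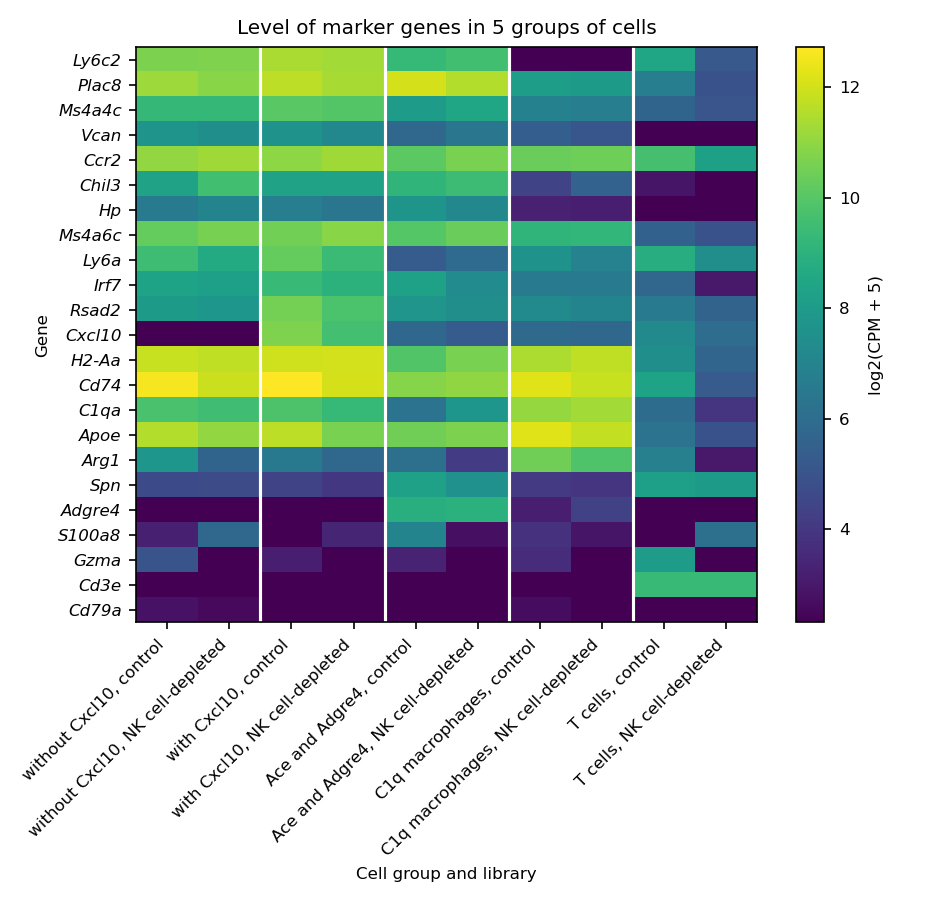
Level of marker genes (rows, colour as log2 of CPM with 5 added) in members, Ly6c2 monocytes with Cxcl10, Ace and Adgre4 monocytes, C1q macrophages and T cells, with a column for each library. Members hold Ly6c2 at 1639 and 1660 CPM and, by the rule, no Cxcl10, Adgre4 or Cd3e.

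Against cells with a UMI of each of C1qa, C1qb and C1qc and none of Ly6c2, called C1q macrophages here (1248 control and 737 NK cell-depleted cells), the members had more Hp, at 92.0 and 123 CPM against 4.61 and 4.09. Arg1 was at 219 and 45.8 CPM against 1409 and 916. The macrophage list had medians of -1.07 and -1.43 and the type I interferon list 1.20 and 1.16. The macrophage list includes C1qa, C1qb and C1qc, which chose the compared cells, so its medians are partly set by that choice. The cells with both Ace and Adgre4 (53 and 112), genes of nonclassical monocytes, held more Spn and Itgal, which encode the adhesion proteins CD43 and CD11a. Spn stood at 20.1 and 21.3 CPM in members against 309 and 185 CPM, and Itgal at 119 and 153 against 1096 and 979 CPM. The chemokine Ccl7 was higher in members, at 1121 and 966 CPM against 56.6 and 138 CPM.

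Markers of other cell types were counted in the members. Genes of the macrophage list reached at least 2 detected in 505 (96.7%) of control and 791 (98.4%) of NK cell-depleted members. NK cell genes summed to 132 and 52.2 CPM over 11 genes, of which 0 and 7 were at 0, and at least 2 of these (Ccl5 counted, Ncr1 at 0 by the rule) were detected in 23 (4.41%) and 19 (2.36%) members. Neutrophil genes summed to 127 and 248 CPM over 9 genes, with 2 and 1 at 0, and at least 2 were detected in 5.56% and 10.3% of members. Genes of dendritic cell lists were common: at least 2 were detected for plasmacytoid dendritic cells in 51.9% of members of either library, for cDC1 in 43.5% and 45.1%, and for cDC2 in 28.5% and 18.2%. Monocytes also express part of these lists, such as the interferon-induced Bst2 with 1892 UMIs in control members, while the cDC1 receptor Xcr1 had 0 and 1 UMIs and the plasmacytoid gene Siglech 66 and 31 UMIs in 12 and 10 members. T cell genes summed to 37.5 and 8.74 CPM over 8 genes with 0 and 3 at 0, and melanoma genes to 37.1 and 40.3 CPM over 8 genes with 6 and 5 at 0. The part of any such cells in the results below was not tested.

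The promoters of 4 genes are printed here because the comparison of members with Cxcl10-positive monocytes turns on them: Cxcl10 itself, whose absence defines the members, and Rsad2, Ifit1 and Ifit3, antiviral genes that were among the lowest in members. The latter 3 were chosen after their values had been seen and because they hold the pattern marked here. Ifit2, with log2 ratios of -2.10 and -2.68, holds no copy in either of its promoters and is not printed. Each runs from 250 bases before to 50 bases after the annotated start, 300 bases in all, on the gene's strand (RefSeq, GRCm38.p6). Capitals mark GAAANNGAAA on either strand (a copy on the other strand is shown by its complement), a core pattern of interferon-stimulated response elements, which the ISGF3 complex and Irf proteins bind. The regions are chr5:92348840-92349139 (minus strand, Cxcl10), chr12:26456403-26456702 (minus, Rsad2), chr19:34640639-34640938 (plus, Ifit1) and chr19:34583279-34583578 (plus, Ifit3).
Cxcl10: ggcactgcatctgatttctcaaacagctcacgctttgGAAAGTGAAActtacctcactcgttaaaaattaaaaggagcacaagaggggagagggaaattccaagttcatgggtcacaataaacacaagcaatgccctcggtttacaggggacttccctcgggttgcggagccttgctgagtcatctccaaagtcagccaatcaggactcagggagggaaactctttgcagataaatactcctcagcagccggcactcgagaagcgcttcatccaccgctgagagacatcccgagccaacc
Rsad2: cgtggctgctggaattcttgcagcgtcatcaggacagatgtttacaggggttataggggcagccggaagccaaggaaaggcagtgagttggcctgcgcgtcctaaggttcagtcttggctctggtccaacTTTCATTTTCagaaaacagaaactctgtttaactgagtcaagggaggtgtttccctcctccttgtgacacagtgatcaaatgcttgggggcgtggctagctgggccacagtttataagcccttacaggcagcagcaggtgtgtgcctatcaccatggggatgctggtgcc
Ifit1: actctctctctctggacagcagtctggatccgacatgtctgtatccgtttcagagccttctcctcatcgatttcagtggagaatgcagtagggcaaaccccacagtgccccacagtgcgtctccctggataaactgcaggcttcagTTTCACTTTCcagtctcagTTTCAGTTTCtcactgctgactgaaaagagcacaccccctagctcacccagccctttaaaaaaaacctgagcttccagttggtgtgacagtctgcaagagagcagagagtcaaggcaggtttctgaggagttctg
Ifit3: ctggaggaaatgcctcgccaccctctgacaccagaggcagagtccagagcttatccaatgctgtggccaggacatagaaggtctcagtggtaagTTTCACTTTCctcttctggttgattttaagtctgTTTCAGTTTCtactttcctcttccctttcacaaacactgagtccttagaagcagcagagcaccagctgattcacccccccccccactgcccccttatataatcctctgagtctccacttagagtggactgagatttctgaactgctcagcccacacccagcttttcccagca
In Cxcl10 the pattern starts 213 bases before the start, on the gene's strand. In Rsad2 it lies 120 bases before, in Ifit1 104 and 85, and in Ifit3 156 and 122 bases before, all on the other strand.

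Of 32851 promoters 1131 (3.44%) held that pattern, and 1079 of 27025 genes (3.99%) had it in any of their promoters. It was found in 19 of 31 type I interferon list genes with a promoter in the table (61.3%) and 11 of 27 of the interferon-gamma list (40.7%), against 1 of 22 hypoxia genes (4.55%). Among the 10 named genes lowest in members compared with Cxcl10-positive monocytes it was found in 6, and in none of the 8 with a promoter among the 10 highest. A match is a description of the letters and not evidence of binding.

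The members were compared with Ly6c2 monocytes with Cxcl10 (125 control and 85 NK cell-depleted cells), selected by the same rule apart from Cxcl10. Rsad2, also called viperin, an inhibitor of virus assembly, was at 247 and 217 CPM in members and at 1488 and 865 CPM in the Cxcl10-positive cells, a log2 ratio at 2000 UMIs of -2.79 and -2.36. At that depth 23.7% and 21.7% of members held a UMI of it, against 64.5% and 52.4% of Cxcl10-positive cells and 8.74% and 4.88% of T cells. Members therefore lay between T cells and Cxcl10-positive monocytes in both libraries. Ifit1, a sensor of viral RNA, was at 106 and 59.1 CPM against 464 and 227. Isg15, a ubiquitin-like protein attached to other proteins, was at 362 and 210 CPM against 1150 and 493, and Cmpk2, a nucleotide kinase, at 70.2 and 50.1 against 313 and 173. Ifih1, the RNA sensor MDA5, was at 102 and 96.6 CPM against 267 and 208. Cxcl10 selected on the same response, so this difference is a description of how the response is distributed over cells.

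Of 38 type I interferon genes, 23 were at least 1.5-fold lower in members in both libraries and 0 were higher, with medians of -1.14 and -0.81; of all 8541 genes compared, 1.74% were lower and 1.78% higher by that measure. Of 32 interferon-gamma genes, 8 were lower and 0 higher (medians -0.96 and -0.48), and Gbp2, a guanylate-binding protein of that list, was at 72.9 and 40.9 CPM against 332 and 104 CPM. Of 10 CC chemokines 5 were lower (medians -0.77 and -0.58). Ccl12, a chemokine for monocytes, was at 142 and 69.3 CPM against 546 and 179, and Ccl2 at 1083 and 1500 CPM against 1760 and 2347. Thinned to 2000 UMIs, the medians were -1.05 and -0.86 for type I interferon and -0.90 and -0.43 for interferon-gamma genes. The whole-gene medians were 0.11 and 0.09 at 2000 UMIs, and 0.08 and 0.07 at the cells' own depth.

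Genes higher in members than in Cxcl10-positive cells belonged to other groups. Pf4, a chemokine released by platelets and macrophages, was at 716 and 195 CPM against 365 and 68.8. Gpi1, an enzyme of glycolysis, was at 284 and 246 CPM against 189 and 197 CPM (log2 ratios at 2000 UMIs of 0.82 and 0.77). Il17ra, a subunit of the interleukin-17 receptor, was at 108 and 127 CPM against 50.4 and 81.8. Adam8, a membrane metalloprotease, was at 123 and 105 CPM against 49.0 and 83.7 (0.99 and 0.82 at 2000 UMIs). At the cells' own depth Gpi1 and Adam8 were less than 1.5-fold higher in the NK cell-depleted library. Hypoxia and glycolysis genes had medians of 0.28 and 0.41, against 0.08 and 0.07 over all genes. Of these 22 genes 3 were at least 1.5-fold higher in both libraries (1.78% of all genes).

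**Figure D3:**
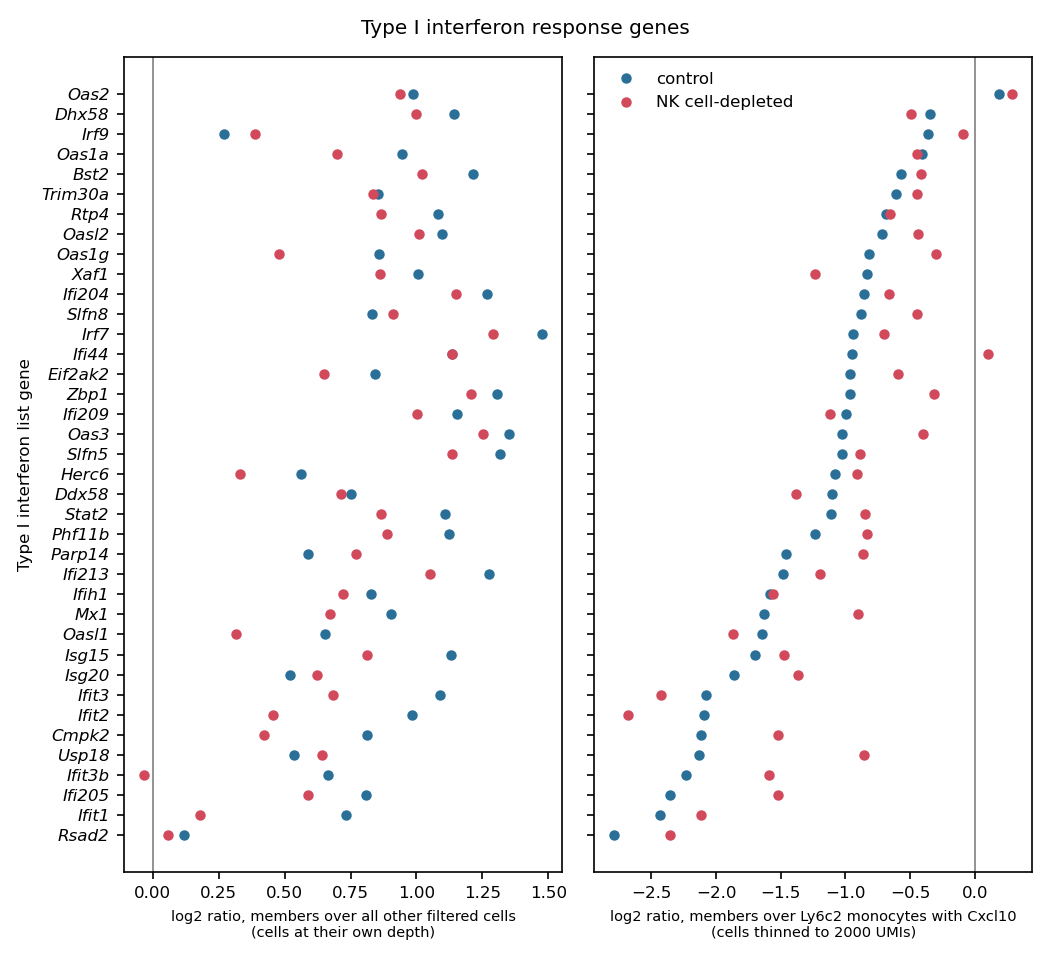
Type I interferon genes (rows) in members as the log2 ratio of CPM (5 added to both) over all other filtered cells (left) and over Ly6c2 monocytes with Cxcl10 at 2000 UMIs a cell (right), with a point for each library. Most genes lie right of 0 on the left and left of 0 on the right, where Rsad2 is at -2.79 and -2.36.

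The members were not uniform. At 2000 UMIs per cell, which leaves out 19 control and 30 NK cell-depleted members with fewer, at least 1 UMI of C1qa, C1qb or C1qc was found in 42.5% (38.2 to 47.0) of control and 38.8% (35.3 to 42.3) of NK cell-depleted members, against 11.7% and 6.10% of T cells. At their own depth the members had 47.3% and 44.0%. H2-Aa, an MHC class II chain for antigen presentation, was found in 68.2% (63.9 to 72.2) and 62.0% (58.5 to 65.4) of members, against 4.85% and 7.32% of T cells. Chil3 was found in 25.05% (21.3 to 29.1) and 36.05% (32.7 to 39.5), and in 0 of 103 and 0 of 82 T cells, which allows shares of up to 2.91% and 3.66%. The rule used Chil3 as 1 of 5 alternatives, so that its share is partly set by it.

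Members with a C1q UMI and those without differed in named genes. H2-Aa was found in 87.9% of control members with C1q and 53.6% of those without, and in 84.7% and 47.7% of NK cell-depleted members. Chil3 was found in 13.1% against 33.9% and in 26.0% against 42.4%, the opposite direction. Of 10 MHC class II genes, 4 were at least 1.5-fold higher with C1q in both libraries, where 392 of all 9640 genes were. The class II medians were 0.39 and 0.43 (0.14 and 0.20 at the cells' own depth). Members with C1q were deeper before thinning, at medians of 6279 against 4787 UMIs in the control and 6487 against 5209.5 in the NK cell-depleted library.

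At 2000 UMIs the genes higher with C1q included Folr2, a folate receptor of tissue macrophages, at 213 against 8.65 CPM in the control and 80.0 against 11.6 CPM in the NK cell-depleted library. Gas6, a ligand that bridges dying cells to their receptors, was at 154 against 6.92 and 122 against 16.9 CPM. Ccl7, a chemokine that recruits monocytes, was at 1614 against 457 and 1462 against 408 CPM. Those lower included Mgst1, a glutathione transferase that clears reactive lipids, at log2 ratios of -2.18 and -2.76, Gsr, glutathione reductase, at -2.34 and -2.53, and Hp at -1.91 and -1.96. The macrophage list had medians of 1.52 and 1.38 with C1q over without, the further classical monocyte genes -0.63 and -0.57, and the type I interferon list 0.11 and 0.20.

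Split by Chil3, the members with it had more Vcan, a matrix proteoglycan of monocytes and also one of the rule's genes, at 433 against 172 CPM (control) and 281 against 131 CPM (NK cell-depleted). Thbs1, a matrix protein that restrains angiogenesis, was at 1464 against 645 and 2122 against 1069 CPM. They had less Cd209a, a lectin of monocytes and dendritic cells, at 19.8 against 202 and 12.5 against 161 CPM. Split by H2-Aa, Spon1 was at 94.8 against 9.38 and 88.5 against 8.50 CPM, and Cd177, lower with H2-Aa, had log2 ratios of -2.03 and -2.25. Gsr and Mgst1 were lower with H2-Aa as they were with C1q. These splits are made on the same cells and are not independent of each other.

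The members were then compared between the libraries, control over NK cell-depleted. Of 8284 genes, each with 50 UMIs or more in the members of both libraries combined, 397 (4.79%) were at least 1.5-fold higher in control members and 305 (3.68%) at least 1.5-fold lower, and the median over all genes was -0.02. Neither count has a replicate check. Among genes of the rule, Ly6c2 (1639 and 1660 CPM) and Ms4a4c, a membrane protein of monocytes (611 and 603 CPM), were level, Plac8 had a log2 ratio of 0.34 (0.29 to 0.38) and Ccr2 of -0.20 (-0.24 to -0.15). Chil3 had 926 UMIs (315 CPM) in control and 3537 UMIs (754 CPM) in NK cell-depleted members, which is a log2 ratio of -1.26 (-1.36 to -1.15).

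Of 4 NK cell list genes with 50 UMIs or more, 2 were at least 1.5-fold higher in control members (4.79% of all genes). Gzma, granzyme A of NK cells, had 80 UMIs in control members and 0 in NK cell-depleted members, which against a floor of 3 UMIs is at least 42.6-fold higher. These UMIs lay in 6 cells and 98.8% of them in 5 cells. Ccl5, a chemokine of lymphocytes, had 90 UMIs in 28 control members and 28 UMIs in 5 NK cell-depleted members. Of these 62.2% and 100% lay in 5 cells, and 34 and 0 UMIs remained without those cells. Nkg7, a granule protein of cytotoxic lymphocytes, had 35 and 0 UMIs. These genes were found in a small part of the members, so their ratios are not those of the members at large. The Gzma ratio is that of a few cells.

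Other large ratios also rested on few cells. Ccl17, a chemokine of dendritic cells, had 62 UMIs in 2 control members, 61 of them in 1, and 4 UMIs in the NK cell-depleted library (log2 ratio 4.47). Cxcl9, a Cxcr3 ligand like Cxcl10, had 114 UMIs in 9 control members and 23 UMIs in 4 NK cell-depleted members. S100a8 and S100a9, the calprotectin subunits that neutrophils hold in large amounts, had 13 and 17 UMIs in control and 245 and 250 in NK cell-depleted members, and 96.7% and 96.8% of the latter were in 5 cells. With every cell thinned to 2000 UMIs before selection the log2 ratios of Ccl17 and S100a8 took the opposite sign (-0.88 and 1.19), and among members without C1q that of Cxcl9 did (-0.995).

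Broader differences in control members were found in more cells. Ccl8, a chemokine of macrophages, had 587 UMIs in 46 control members and 115 UMIs in 20 NK cell-depleted members (log2 ratio 3.02, 2.74 to 3.33), although 66.1% and 71.3% lay in 5 cells. Arg1 had 642 UMIs in 67 members and 215 in 38 (219 and 45.8 CPM, 2.25, 2.03 to 2.48). At 2000 UMIs Arg1 was found in 10.3% (7.82 to 13.3) and 3.101% (2.00 to 4.58) of members. Mgl2, a lectin of macrophages and dendritic cells, was found in 10.5% (7.99 to 13.6) and 2.71% (1.69 to 4.12). The T cell shares of the latter were 0.971% and 1.22%, and those of Arg1 3.88% and, for NK cell-depleted tumors, 0 of 82, which allows up to 3.66%. The interferon-gamma-induced GTPase Iigp1 was detected in 39 control and 17 NK cell-depleted members (34.1 and 6.18 CPM, 2.44, 1.85 to 3.11). The cytokine receptor subunit Il7r had 121 and 44 UMIs in 31 and 20 members.

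NK cell-depleted members had more St3gal5, a sialyltransferase of glycolipid synthesis, with 32 UMIs in 27 control members and 162 in 117 NK cell-depleted members (-1.65, -2.26 to -1.11), and more Alox5, the leukotriene enzyme, with 15 and 71 UMIs. Olr1, a receptor for oxidized lipoprotein, had 12 and 50 UMIs (-1.34, -2.43 to -0.45). Among abundant genes, Nr4a1, an orphan nuclear receptor induced by stimulation, was at 531 and 1056 CPM (-0.99, -1.07 to -0.91). Clec4e, a lectin receptor for microbial glycolipids, was at 186 and 362 CPM (-0.96), and Cebpb, a transcription factor of myeloid inflammation, at 963 and 1501 CPM (-0.64). Ccl2 was at 1083 and 1500 CPM (-0.47, -0.53 to -0.41). Nfkbia, the inhibitor that NF-kB induces, was at 416 and 546 CPM (-0.39), and Tnf was at 63.0 and 65.0 CPM (-0.04, -0.32 to 0.22).

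**Figure D4:**
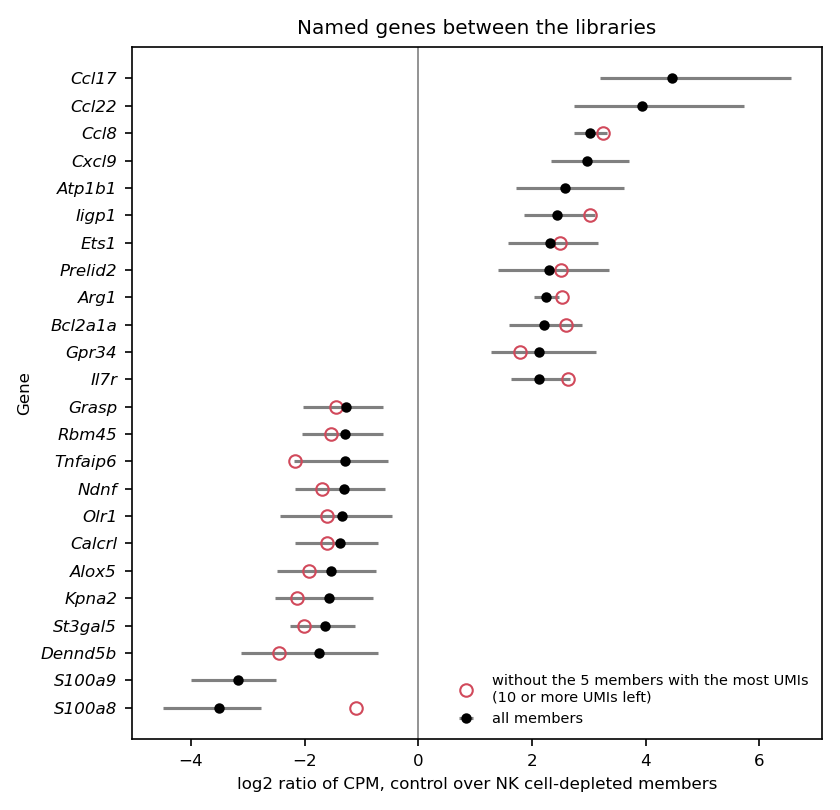
Log2 ratio, control over NK cell-depleted, of CPM in members for named genes (filled points, with 95% intervals of counting error), and the same without the 5 members of each library with the most UMIs of the gene (open circles, where 10 or more UMIs remained). Ccl8 lies at 3.02, Arg1 at 2.25, St3gal5 at -1.65 and S100a8 at -3.51.

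Counts by gene group stand beside the shares of all genes, 4.79% at least 1.5-fold higher and 3.68% lower, and beside 1118 of 9637 genes with an interval above 0 and 1362 below. By group, 9 of 22 hypoxia and glycolysis genes were at least 1.5-fold higher in control members and 0 were lower, with a median of 0.56, and 20 of 22 had an interval above 0. Fam162a, a hypoxia-induced mitochondrial protein, was at 89.6 and 31.8 CPM (1.49), Mif, a cytokine that hypoxia induces, at 327 and 170 CPM (0.95), and the glycolytic enzyme Eno1 at 152 and 76.8 CPM (0.98). For the same list the C1q macrophages had a median of 0.17 and the Cxcl10-positive Ly6c2 monocytes 0.71, and these differences between cell groups were not tested. Of 20 macrophage genes, 8 were higher and 0 lower, with a median of 0.47. Folr2 was at 112 and 51.8 CPM (1.11) and Ms4a7 at 229 and 141 CPM (0.70), whereas Mrc1, the mannose receptor, was at 823 and 822 CPM.

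Of 32 interferon-gamma genes, 11 were at least 1.5-fold higher in control members (4.79% of all genes) and 0 lower, with a median of 0.32. With no condition on Cxcl10 in the rule the median was 0.49. Gbp8 was at 17.7 and 4.48 CPM (1.96) and Gbp4 at 29.3 and 12.8 CPM (1.19), both of the family that attacks pathogen compartments. Ciita, the master regulator of MHC class II, was at 145 and 82.1 CPM (0.82) and Cd74, the class II invariant chain, at 6050 and 3765 CPM (0.68). Other genes of the list stood level or lower. Irf1, a transcription factor that interferon-gamma induces, was at 76.6 and 74.2 CPM (0.05, -0.20 to 0.29), and the class I genes B2m and H2-K1 were at -0.27 and -0.15 on the log2 scale.

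Of 38 type I interferon genes, 7 were at least 1.5-fold higher in control members (4.79% of all genes) and 0 lower, with a median of 0.17, 17 intervals above 0 and 3 below. Ifit2 and Ifit3 were at 107 and 54.2 CPM (0.98) and at 74.9 and 37.7 CPM (0.99), and Isg15 at 362 and 210 CPM (0.78). Rsad2, far lower in members than in Cxcl10-positive cells, was at 247 and 217 CPM (0.19, 0.05 to 0.32). The Cxcl10-positive monocytes had medians of 0.60 for type I interferon and 0.71 for interferon-gamma genes between the libraries, and C1q macrophages 0.17 and 0.35. The rule left out these Cxcl10-positive cells, 19.3% of control and 9.56% of NK cell-depleted Ly6c2 monocytes, so the members' interferon values depend on it. With no condition on Cxcl10 the type I interferon median was 0.39.

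MHC class II genes had a median of 0.44 with 3 of 9 at least 1.5-fold higher, and H2-Aa itself was at 3729 and 3407 CPM (0.13, 0.09 to 0.17). Dendritic cell lists moved in the same direction, with a median of 0.75 for cDC2 (3 of 6 at least 1.5-fold higher, 6 of 7 intervals above 0). Plasmacytoid and migratory dendritic cell genes had medians of 1.12 and 1.80, over only 5 and 4 genes. The plasmacytoid list summed to 985 and 773 CPM. The migratory list held 115 and 37 UMIs, and at least 2 of its genes were detected in 4 and 0 members. The part of dendritic cell genes in the class II values was not tested. Oxidative phosphorylation genes had a median of 0.31 and 30 of 40 intervals above 0. At least 1.5-fold higher were 3 of 40, against 4.79% of all genes, and C1q macrophages had 0.32. The inflammatory and NF-kB list had a median of -0.29, with 1 gene higher and 3 lower of 22 (3.68% of all genes were lower). C1q macrophages had -0.31 for it. Adhesion and migration genes had a median of -0.28 and 12 of 19 intervals below 0, CC chemokines -0.19 (0.036 when cells were thinned before selection), and the further classical monocyte genes -0.15.

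**Figure D5:**
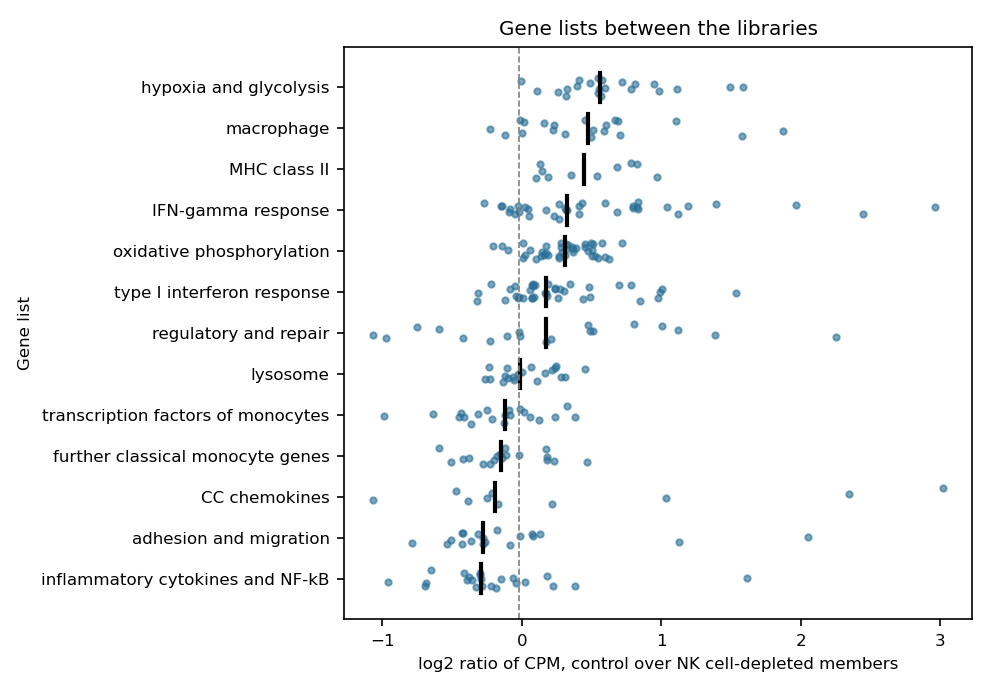
Log2 ratio, control over NK cell-depleted, of the CPM of each gene (points) in members by gene list, with the list's median (bar) and the median of all genes (dashed line). The hypoxia and glycolysis median is 0.56 and the inflammatory and NF-kB median -0.29.

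Because members with and without C1q transcripts differed, the library comparison was repeated within each. The hypoxia list had medians of 0.57 with and 0.55 without C1q, the interferon-gamma list 0.26 and 0.24, the type I interferon list 0.12 and 0.19, and the macrophage list 0.34 and 0.37. The direction of each of these lists was the same in both.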

How the data were processed

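Both samples were sequenced as single-cell RNA libraries (11 cDNA and 14 index cycles). Per the file headers and the methods, the authors demultiplexed with bcl2fastq, aligned to mm10 and ran Cell Ranger (3.0.2 in the headers), and deposited a raw UMI count matrix of called cells for each library. Their deposited normalized table was not used. Cells were filtered, selected and summed with Python 3.11.15, numpy 2.4.6, pandas 2.3.3 and scipy 1.17.1, and figures were drawn with matplotlib 3.10.9. Ratios over other cells had 5 CPM added on both sides. Ratios between libraries had 0.5 UMI added, with conditional binomial intervals, and shares had exact Clopper-Pearson intervals, all at 95%. Where stated, each cell was thinned to 2000 UMIs and shallower cells were left out. Genes outside the rule, in at least 10% of the higher cells, were named by the largest ratio in the less extreme library. These were the 15 highest and 10 lowest over other cells. Against Cxcl10-positive cells 10 each way were named, ranked in cells thinned to 2000 UMIs. Between libraries 12 each way were named, without the 10% limit. The latter were taken among genes with 50 UMIs or more and an interval that excludes 0, with NK cell markers set apart. Genes of the lists could be named with their values. A called gene was past 2-fold (other cells) or 1.5-fold (otherwise), with no test. List medians used genes with 20 UMIs or more that the rule did not use. Scrublet in scanpy 1.11.5 (5% expected) marked 3 cells. Scripts were tested on simulated data. The members and lists were chosen with earlier results of these data known. The sequences are RefSeq promoters.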

Additional observations from a re-analysis of the deposited data

Results flagged for a closer look

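For 5 genes named between the libraries, the ratio, control over NK cell-depleted, had opposite signs in Ly6c2 monocytes without Cxcl10 and in C1q macrophages. Both intervals excluded 0 for these 5. Other named genes, such as Atp1b1 (2.58 and -1.10), also differed in sign, but their interval in C1q macrophages included 0. The difference between the cell groups was not tested. Ccl17 had a log2 ratio of 4.47 in members and -1.16 in C1q macrophages, and Ccl22, the other ligand of Ccr4, 3.93 and -2.41. Both rested on a few cells in members, with 62 Ccl17 UMIs in 2 and 52 Ccl22 UMIs in 6 control members. S100a8 had -3.51 in members and 1.82 in C1q macrophages, and S100a9 -3.16 and 3.25, with a UMI of S100a8 in 13 and of S100a9 in 13 NK cell-depleted members. Tnfaip6, a secreted hyaluronan-binding protein, had -1.29 and 0.72, with 17 UMIs in 9 control members (76.5% in 5 of them) and 68 UMIs in 24 NK cell-depleted members (52.9% in 5).

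Barcodes above the upper limits on UMIs or genes were not used. Of 212 control and 353 NK cell-depleted barcodes of that kind, with medians of 22108 and 19751 UMIs, 9 and 15 met the rest of the rule. Those 9 and 15 are few beside the 522 and 804 members.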

How the results depend on the processing

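No paired analysis was possible because each group is 1 library. Of 1600 recomputed values 1399 stayed within their limits, 183 moved and 18 reversed. Alternatives without a condition on Adgre4, without shared barcodes and within C1q strata were added after seeing the data. The cause of a move was not tested. The share ratio was 0.620 with no condition on Cxcl10 and 0.892 among Ly6c2 monocytes only. Genes higher in control members numbered 207 when thinned before the rule, and with 20 UMIs or more 728 were higher and 470 lower. Over other cells the count higher was 82 and lower 518 with no upper limits, and the count higher 61 with no condition on Cxcl10, 49 thinned before the rule, 45 with no condition on Adgre4 and 47 at equal weight. With 1 CPM added 643 were lower. Against Cxcl10-positive cells 319 (thinned before the rule), 260 (thinned after it), 307 (1 CPM added) and 369 (3 or more Cxcl10 UMIs) were higher, and the control type I interferon median was -1.42 with the last. The MHC class II median between libraries was 0.16 (no upper limits), 0.24 (1 or more Ly6c2 UMIs), 0.28 (3 or more), 0.35 (thinned before the rule, genes with 1 or with 100 UMIs, and members without C1q), 0.36 (no condition on Adgre4) and 0.29 (members with C1q).

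Reversed values over other cells were 0.31 (no upper limits) and 0.16 (mean of cells, and equal weight) for MHC class II in the NK cell-depleted library, 0.18 and 0.15 for macrophage genes in control and NK cell-depleted members (no upper limits), and 0.045 (control, thinned before the rule) and 0.022 (NK cell-depleted, no upper limits) for inflammatory genes. Between libraries CC chemokines reversed to 0.036 (thinned before the rule). Ccl17 reversed to -1.07 (5% mitochondrial limit), -0.84 (3 or more Ly6c2 UMIs), -0.88 (thinned before the rule) and -1.78 (members with C1q), Ccl22 to -2.24 (thinned before the rule) and Cxcl9 to -0.995 (members without C1q). S100a8 reversed to 1.19 (thinned before the rule) and 0.54 (members with C1q), and S100a9 to 0.29 (1 or more Ly6c2 UMIs) and 1.88 (members with C1q).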
